A study of Mus musculus with 3 samples.

Results

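The genes described here are 9 members of the inflammasome, ZBP1 and pyroptosis pathway: *Zbp1*, *Aim2*, *Nlrp3*, *Pycard*, *Casp1*, *Casp4*, *Gsdmd*, *Il1b* and *Il18*. They are 9 of the 32285 genes in the deposited matrices of mouse dorsal skin. Most of them were chosen by pathway membership, while *Zbp1* was selected on its rise in the AA library, where it had 5.52 CPM (counts scaled to 1000000 UMIs) against 0.873 CPM in the control library. *Aim2* was selected on leading a cluster of hair matrix cells in an earlier clustering of these data, and the matrix-like class had 40.5, 56.4 and 38.0 CPM in the Neg, AA and AA+Ab libraries. The values that chose these genes are a description, with no test, and they lend no support to a difference between groups.

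The series holds 3 droplet libraries of dorsal skin from 25-week-old female C3H/HeN mice, with no transgene or deletion named in any group. Neg was the vehicle-treated negative control, AA was the alopecia areata model, and AA+Ab was that model given an antibody that neutralizes CXCL12. Each library pooled the skin of 7 to 8 mice, so each group was 1 library and no spread between mice could be measured. Skin was digested with collagenase D and passed over Percoll before 10x 3′ v3.1 capture, so cell shares are those of the released cells. No difference between groups could be tested, and every interval below is a 95% interval for counting error alone, which covers neither mice nor libraries. UMIs of 1 cell are not independent of each other, and the intervals do not cover that either.

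The matrices held 6965, 10879 and 10507 barcodes in Neg, AA and AA+Ab. Barcodes with at most 10% mitochondrial UMIs and at least 200 genes numbered 6582, 10433 and 9832. These kept cells held 119193310, 135609481 and 139663314 UMIs. The median cell had 13694.5, 11177 and 11371 UMIs, so control cells were the deepest. Of the deposited barcodes, Neg and AA shared 18, AA and AA+Ab shared 28, and Neg and AA+Ab shared 17.

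The tissue label was checked against markers. All 12 keratinocyte markers had UMIs in every library, with a summed level of 16410, 19030 and 17040 CPM, led by *Krt14*. The 8 T cell markers summed to 131, 111 and 145 CPM, led by *Cd3g*, and the 11 dendritic cell and macrophage (DC/Mac) markers to 124, 257 and 142 CPM, led by *Cd74*. The neutrophil list had 8, 7 and 8 of its 8 markers and summed to 97.5, 24.1 and 172 CPM, led by *S100a9*. The 6 endothelial markers summed to only 18.5, 9.83 and 16.5 CPM, led by *Egfl7*, and no cluster was named endothelial at the main resolution.

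Inflammasomes are assemblies in which a sensor such as AIM2 or NLRP3 recruits the adaptor ASC, encoded by *Pycard*, and activates caspase-1. Active inflammatory caspases cleave gasdermin D, which opens pores in the cell membrane, and caspase-1 matures the cytokines encoded by *Il1b* and *Il18*. ZBP1 is an interferon-induced sensor of Z-form nucleic acids, and it can start several forms of cell death, among them pyroptosis. Transcript counts do not show cleavage, assembly or secretion, none of which was measured.

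Clustering without the members gave 32 clusters, which were named from marker lists, and class names below mean "like" that class. Keratinocyte-like cells were 83.5%, 86.4% and 85.7% of the kept cells, T cell-like cells 1.79%, 3.81% and 2.47%, and neutrophil-like cells 0.425%, 0.144% and 0.976%. The DC/Mac-like class held 52, 117 and 105 cells. Its own list of 11 markers summed to 17370, 26330 and 13990 CPM, led by *Cd74*. It also held all 7 B cell and plasma cell markers, with a sum of 26310, 37170 and 112100 CPM led by *Igkc*. At the finer resolution of 2, 45 B cell-like and plasma cell-like cells formed a cluster of their own, and DC/Mac values of that clustering are given where they moved a level by over 1.5 times. At that resolution the 76, 133 and 52 dermal fibroblast-like cells split into 47, 115 and 31 that kept the name and 29, 18 and 21 endothelial-like cells, so values of that class below cover both. The T cell-like class also carried all 12 keratinocyte markers at a summed 7143, 6514 and 6534 CPM, led by *Krt14*. Clusters 15, 16 and 20 were not named, because of few UMIs or of called doublets, and held 4.82%, 2.58% and 0.289% of Neg cells, 0.412%, 1.25% and 1.82% of AA cells, and 1.35%, 1.77% and 0.620% of AA+Ab cells.

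Some classes drew on different clusters in different libraries. Suprabasal-like cells came 53.4%, 41.3% and 59.4% from cluster 5 and 46.6%, 58.7% and 40.6% from cluster 6. Cycling keratinocytes came 48.0%, 61.4% and 53.0% from cluster 8, the rest being cluster 11. Cluster 2 made up 24.7%, 38.7% and 14.98% of the keratinocyte-like cells not named further (clusters 1, 2, 3, 13, 17, 23 and 30). Cluster 10 made up 11.5%, 12.1% and 30.0% of basal-like cells. Values by cluster are given where the class value depends on that mix.

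All 9 members had UMIs in every library, and 9 passed the filter of 50 UMIs over the libraries. On this 3′ UMI scale, which is not divided by gene length, *Pycard* stood first and *Casp4* second in each library. In Neg, *Aim2* and *Casp1* did not differ beyond their intervals, nor did *Gsdmd* and *Zbp1* at the low end. In AA no neighbours in the order overlapped, and the order was *Pycard*, *Casp4*, *Casp1*, *Aim2*, *Il1b*, *Zbp1*, *Il18*, *Gsdmd* and *Nlrp3*. In AA+Ab the pairs *Aim2* and *Casp1*, *Nlrp3* and *Il18*, and *Zbp1* and *Gsdmd* overlapped.

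**Figure D1:**
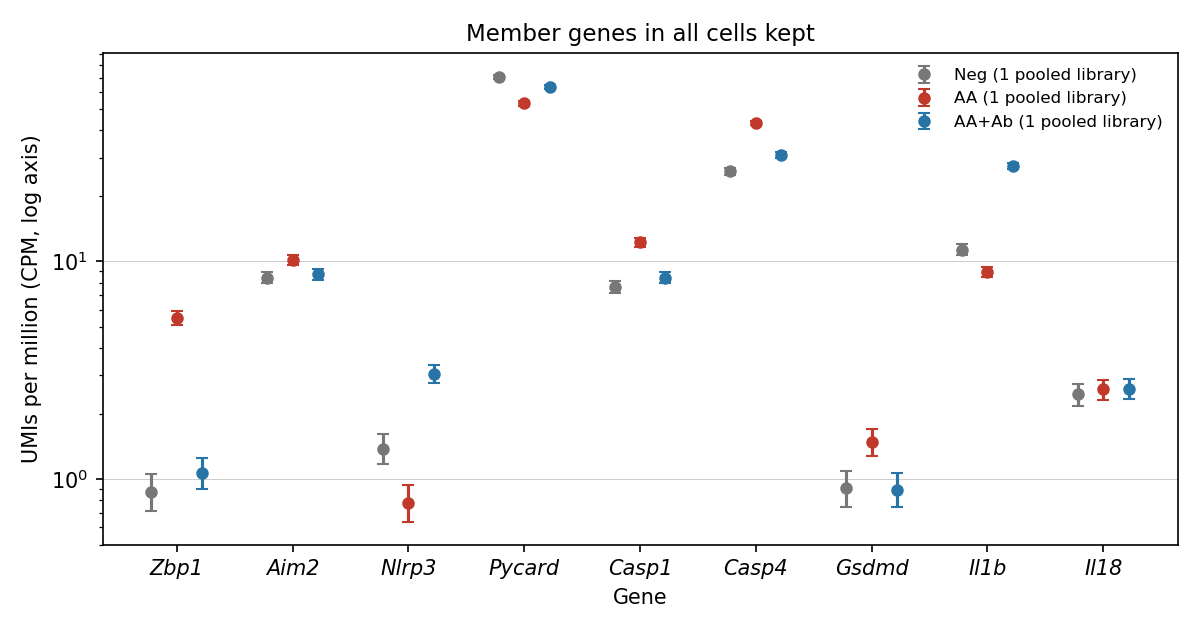
Levels of the 9 members in the Neg, AA and AA+Ab libraries, in CPM on a log axis with counting intervals.

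With a fold of 1.5 as the limit, 4 of the 9 members were higher in AA than in Neg (*Zbp1*, *Casp1*, *Casp4* and *Gsdmd*), beside 6.95% of the 18310 genes that passed the filter. Only *Nlrp3* was lower, beside 8.3% of all genes. From AA to AA+Ab, 2 members were higher (*Nlrp3* and *Il1b*), beside 5.85% of genes, and 2 were lower (*Zbp1* and *Gsdmd*), beside 9.6%. The median log2 ratio of the members was 0.27 for AA over Neg and -0.22 for AA+Ab over AA, against -0.06 and 0.01 over all genes. *Zbp1* was chosen for this rise, so nothing is read from its place in the count or from the members' medians, which include it. The comparisons share the AA library, so a value that is high by chance in AA raises the first ratio and lowers the second.

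Within keratinocyte-like cells 8 of the 9 members passed the filter, and *Nlrp3* did not. The same 4 members (*Zbp1*, *Casp1*, *Casp4* and *Gsdmd*) were higher in AA, beside 5.15% of 17206 genes, and 0 were lower, beside 8.26%. From AA to AA+Ab, 0 members were higher, beside 5.09%, and *Zbp1* and *Gsdmd* were lower, beside 8.97%. The members' median log2 ratio there was 0.38 and then -0.27, against -0.08 and 0.01 over all genes. These medians also include *Zbp1*, so nothing is read from them. Over all cells, with the named classes weighted as in Neg, only *Zbp1* stayed past 1.5-fold in either comparison, and weighting the 32 clusters gave the same count. The share of all genes past the limit is not given with these weights, and *Zbp1* was selected on its AA level. Nothing is therefore read from these counts.

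*Zbp1* (ENSMUSG00000027514, chr2:173206612-173218923, minus strand, mm10) encodes the sensor of Z-form nucleic acids. It had 104, 748 and 149 UMIs in Neg, AA and AA+Ab, or 0.873 (0.713 to 1.06), 5.52 (5.13 to 5.93) and 1.07 (0.902 to 1.25) CPM. The AA over Neg ratio was 6.32 (5.14 to 7.84) and the AA+Ab over AA ratio 0.193 (0.161 to 0.231). *Zbp1* therefore stood several times higher in the AA library than in either of the others. Weighting classes as in Neg left 4.98 CPM in AA and 1.12 in AA+Ab, as a description of the gene that was selected on its AA level.

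Keratinocyte-like cells held 20, 593 and 77 *Zbp1* UMIs, or 0.191 (0.117 to 0.295), 4.78 (4.40 to 5.18) and 0.612 (0.483 to 0.765) CPM. The ratios were 25.0 (16.1 to 41.3) and 0.128 (0.0997 to 0.163). Keratinocyte-like cells gave 19.2% of all *Zbp1* UMIs in Neg, 79.3% in AA and 51.7% in AA+Ab. The gene's main source among the captured cells thus changed from the immune classes in Neg to keratinocyte-like cells in AA. In keratinocyte-like cells 2 immune marker lists were also highest in AA: the 11 DC/Mac markers summed to 22.4, 93.4 and 23.4 CPM (11, 11 and 10 with a UMI, led by *Cd74*, *C1qb* at 0 in AA+Ab), and the 7 B cell and plasma cell markers, all with UMIs, to 4.66, 78.5 and 12.1 CPM (led by *Igkc*). The 8 T cell markers summed to 35.5, 23.8 and 35.3 CPM (led by *Trbc2*) and the 7 mast cell markers to 22.8, 14.0 and 20.4 (6, 6 and 7 with a UMI, led by *Kit*, *Ms4a2* at 0 in Neg and AA), both lowest in AA. The 8 neutrophil markers summed to 3.97, 5.78 and 9.41 CPM (led by *S100a8*, 7 with a UMI) and the 8 monocyte markers to 2.09, 2.10 and 2.21. The part of these lists in the *Zbp1* rise was not tested.

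T cell-like cells had 33.0, 34.9 and 19.8 CPM of *Zbp1*. Their ratios were 1.06 (0.687 to 1.67) and 0.568 (0.351 to 0.894). The share of them with a *Zbp1* UMI was 19.5%, 11.8% and 9.88%, and 5.98%, 3.39% and 1.28% after thinning, at median depths of 5526.5, 3929 and 4131 UMIs. DC/Mac-like cells had 59.1, 48.0 and 21.3 CPM, with ratios of 0.811 (0.463 to 1.45) and 0.444 (0.216 to 0.861). In both immune classes the *Zbp1* level per UMI did not differ detectably between Neg and AA at this depth and was lower in AA+Ab. At resolution 2, with B cell-like cells apart, the DC/Mac-like level of *Zbp1* was 31.6, 51.4 and 13.7 CPM, so the direction between Neg and AA turned in that class. In AA the *Zbp1* intervals of DC/Mac-like and T cell-like cells overlapped. Dermal fibroblast-like cells (9.39, 19.0 and 15.6 CPM) had an AA interval of 11.25 to 30.0. It overlapped those of T cell-like (27.39 to 43.79) and melanocyte-like cells (6.44 to 23.1).

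Among keratinocyte-like classes, basal-like cells had 0, 91 and 27 *Zbp1* UMIs, or 0 (up to 0.198 for a count of 0), 4.96 and 1.40 CPM. Against a floor of 3 UMIs per library, the AA rise in basal-like cells was at least 25.1-fold, and the AA+Ab over AA ratio was 0.283 (0.177 to 0.439). Suprabasal-like cells had 0, 68 and 5 UMIs, or 0 (up to 0.228), 4.44 and 0.327 CPM, a rise of at least 19.5-fold. Upper hair follicle-like cells had 0, 45 and 1 UMIs, or 0 (up to 0.445), 10.4 and 0.121 CPM, a rise of at least 23.4-fold. *Zbp1* was thus not detected in these interfollicular and upper follicle classes of the control library and was found in all of them in AA.

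The *Zbp1* rise was seen in both suprabasal clusters, at 7.197 CPM in cluster 5 and 2.68 in cluster 6 of the AA library. Cycling keratinocytes had 3, 81 and 7 *Zbp1* UMIs, or 0.218, 6.40 and 0.446 CPM, with ratios of 29.4 (9.71 to 145.5) and 0.0697 (0.0272 to 0.150). That cycling level came from cluster 8 (12.4 CPM in AA) rather than cluster 11 (0.319 CPM). Among clusters not named further, cluster 2 had 7.06, cluster 3 had 8.51 and cluster 13 had 9.29 CPM of *Zbp1* in AA.

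The lower follicle had little *Zbp1*. Matrix-like cells held 8, 4 and 4 UMIs, or 0.534, 0.276 and 0.198 CPM, with a ratio of 0.517 (0.114 to 1.93) for AA over Neg. Inner root sheath-like cells held 0, 5 and 1 UMIs, and cortex-like cells 0, 0 and 1. The *Zbp1* difference between AA and Neg was therefore not detectable in matrix-like or cortex-like cells at this depth. Langerhans-like and dermal papilla-like cells had no *Zbp1* UMI in any library, and in AA the dermal papilla count of 0 allows up to 5.20 CPM.

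A *Zbp1* UMI was found in 0.273%, 3.65% and 0.641% of keratinocyte-like cells, whose median depths were 14419.5, 11744.5 and 11980 UMIs. Cortex-like cells, taken as a class with little of the gene, had 0 of 178, 0 of 187 (up to 1.60%) and 1 of 207 cells at median depths of 25478, 18292 and 20850 UMIs. With every cell thinned to 1000 UMIs, leaving out 290, 86 and 158 cells of the libraries, the keratinocyte-like shares were 0.0182%, 0.489% and 0.0357%. These thinned shares rest on 1, 44 and 3 cells. *Zbp1* was selected on its AA level, so its shares are a description.

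**Figure D2:**
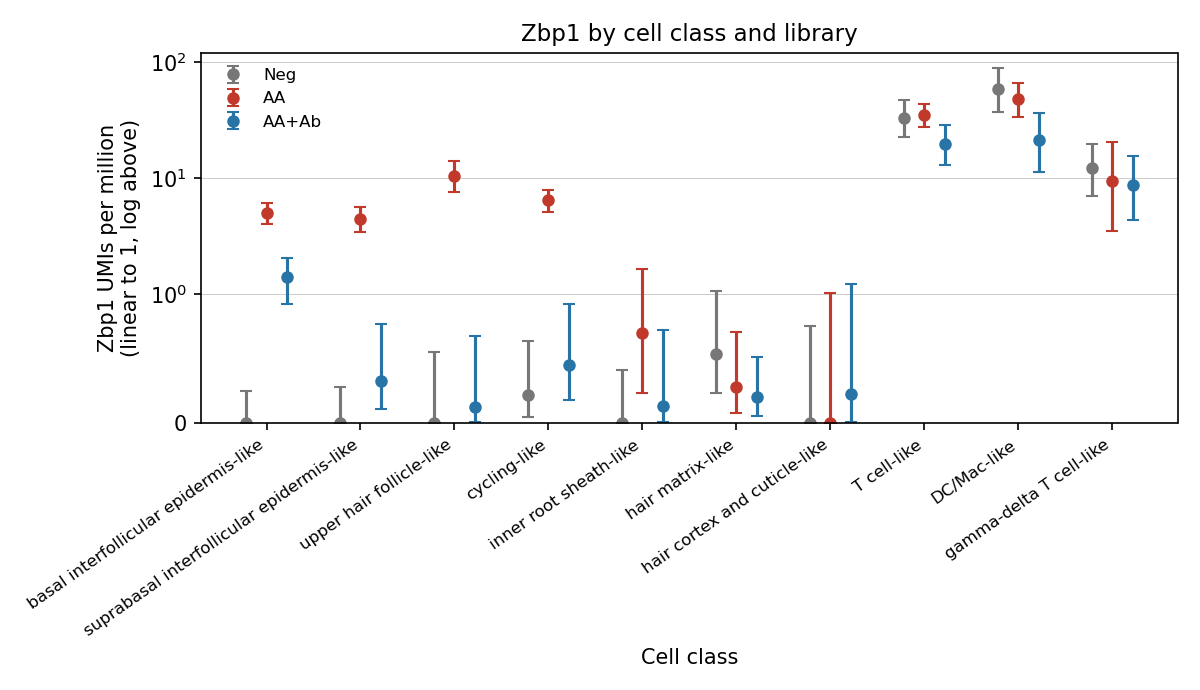
*Zbp1* level by class and library, on an axis that is linear to 1 CPM and logarithmic above it.

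Keratinocyte-like cells with a *Zbp1* UMI numbered 15, 329 and 54. In AA the 15 listed interferon-responsive genes summed to 2741 CPM in these cells and to 384 CPM in the other keratinocyte-like cells. *Casp1* had 26.1 CPM with *Zbp1* and 11.3 without, *Casp4* 58.6 and 40.8, and *Pycard* 91.9 and 52.8. In AA+Ab the same pairs were 15.3 and 8.32, 46.9 and 29.9, and 98.8 and 64.7 CPM. In Neg the values were 4.66 and 7.205, 9.32 and 25.2, and 37.3 and 72.4 CPM, lower with *Zbp1*. The 15 *Zbp1*-positive cells of Neg held only 429209 UMIs in all. No intervals were made for these levels, so no direction is read from Neg. Clusters were not held equal, with cluster 13 high in both *Zbp1* and *Casp1* (9.29 and 37.2 CPM). In AA 133 of the 329 *Zbp1*-positive keratinocyte-like cells (40.4%) also had a *Casp4* UMI.

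In AA the same *Zbp1*-positive cells had 8 of the 11 DC/Mac markers at a summed 956 CPM, against 56.0 CPM without *Zbp1*. Nearly all of that sum was *Cd74* (671 CPM against 35.1), *H2-Aa* (155 against 11.1) and *H2-Ab1* (128 against 7.39). *Cd68* came next at 1.16 CPM against 1.07, and *Lyz2* was lower with *Zbp1*, at 0.387 against 0.664. *Adgre1*, *C1qa* and *C1qb* were at 0 and *Csf1r* was at 0.193 CPM against 0.185. The list thus did not rise as a whole in these cells. T cell markers summed to 32.7 and 23.4 CPM. Called doublets were 13.3%, 11.3% and 18.5% of the cells with *Zbp1* in Neg, AA and AA+Ab, and 2.54%, 7.35% and 6.04% of those without. Median depths were 17979, 12659 and 15451.5 UMIs with *Zbp1* and 14416, 11712 and 11952 without, and the part of doublets and depth in these values was not tested. In AA+Ab the interferon list summed to 1340.0 CPM with *Zbp1* and 245 without. In Neg the 15 cells with *Zbp1* had no such difference (179 and 210 CPM), so there the gene and the interferon list did not rise together.

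*Aim2* (ENSMUSG00000037860, chr1:173350879-173466040, plus strand) encodes a sensor of double-stranded DNA. It had 1006, 1383 and 1220 UMIs, or 8.44 (7.93 to 8.98), 10.2 (9.67 to 10.8) and 8.74 (8.25 to 9.24) CPM. The ratios were 1.21 (1.11 to 1.31) and 0.857 (0.792 to 0.926). The library level of *Aim2* therefore moved little, within the limit of 1.5-fold.

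Hair matrix-like cells (cluster 4) gave 60.3%, 59.1% and 63.0% of the *Aim2* UMIs, and the gene was chosen for that place. They had 607, 817 and 769 UMIs, or 40.5 (37.4 to 43.9), 56.4 (52.6 to 60.4) and 38.0 (35.4 to 40.8) CPM. The matrix ratios of *Aim2* were 1.39 (1.25 to 1.55) and 0.674 (0.610 to 0.745). Other keratinocyte-like classes had far less of the gene, with 7.09, 10.9 and 7.71 CPM in cortex-like cells and 0.725, 0.381 and 0.415 CPM in basal-like cells. Within cycling cells *Aim2* stood at 7.25, 5.91 and 9.10 CPM in cluster 11 and at 1.42, 0.939 and 2.06 CPM in cluster 8, the reverse of *Zbp1*.

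An *Aim2* UMI was seen in 27.0%, 25.3% and 23.2% of matrix-like cells, at median depths of 24679, 21626 and 24417 UMIs. In basal-like cells the *Aim2* shares were 0.718%, 0.308% and 0.476%, at depths of 12686, 10980 and 11232.5 UMIs. Thinned to 1000 UMIs, the matrix shares were 3.84%, 4.64% and 3.27%. The gene was chosen for its place in the matrix, so these *Aim2* shares are a description.

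T cell-like cells had more *Aim2* per UMI than the matrix, at 60.6 (45.9 to 78.5), 114.5 (100.6 to 129.9) and 80.7 (66.4 to 97.3) CPM. Their ratios were 1.89 (1.41 to 2.57) and 0.705 (0.558 to 0.886). In these cells the 8 T cell markers summed to 2051, 3494 and 3114 CPM, led by *Cd3g*. The 11 DC/Mac markers summed there to 43.6, 129 and 93.9 CPM (5, 8 and 7 with a UMI), led by *Cd74*. The part of these lists in the *Aim2* values was not tested. DC/Mac-like cells had 59.1, 80.8 and 77.0 CPM, and gamma-delta T cell-like cells 19.0, 34.6 and 11.02 CPM. The T cell-like and DC/Mac-like intervals of *Aim2* overlapped in each library, and in AA the DC/Mac interval (61.5 to 104.3) began just above that of the matrix. Over all keratinocyte-like cells *Aim2* was level at 7.72, 7.85 and 7.72 CPM.

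*Nlrp3* (ENSMUSG00000032691, chr11:59541568-59566956, plus strand) encodes a sensor that responds to membrane damage and ion flux. It had 164, 105 and 425 UMIs, or 1.38 (1.17 to 1.60), 0.774 (0.633 to 0.937) and 3.04 (2.76 to 3.35) CPM. The ratios were 0.563 (0.436 to 0.723) and 3.93 (3.17 to 4.91). At library level *Nlrp3* was thus lowest in AA and highest in AA+Ab, the same order as the neutrophil-like share.

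Neutrophil-like cells, which numbered 28, 15 and 96, gave 78.0%, 42.9% and 85.4% of all *Nlrp3* UMIs. Their level was 920.5 (768 to 1094), 566 (413 to 757) and 883 (795 to 979) CPM, with ratios of 0.615 (0.428 to 0.870) and 1.56 (1.14 to 2.18). Their 8 listed markers summed to 77630, 30220 and 54860 CPM, led by *S100a9*, with *Ly6g* at 0 in AA. Keratinocyte markers summed to 6364, 15100 and 10670 CPM in the same cells, and called doublets were 10.7%, 33.3% and 13.5%. With called doublets removed, the *Nlrp3* level was 1311, 1327 and 1502 CPM, so the lower AA level per UMI was not found in the remaining neutrophil-like cells.

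Without the neutrophil-like cells the library log2 ratio of *Nlrp3* for AA over Neg turned to 0.55, and that for AA+Ab over AA became 0.01. DC/Mac-like cells had 37.6, 67.1 and 80.3 CPM of *Nlrp3*, with ratios of 1.78 (0.969 to 3.50) and 1.20 (0.789 to 1.82), and at resolution 2 the levels were 44.2, 74.1 and 133.8 CPM. Weighting classes as in Neg gave 0.982 CPM of *Nlrp3* in AA and 1.36 in AA+Ab, against 1.38 in Neg, so *Nlrp3* stayed lowest in AA with that weighting and not without neutrophil-like cells.

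An *Nlrp3* UMI was found in 25 of 28, 12 of 15 and 85 of 96 neutrophil-like cells, at median depths of 2915.5, 2682 and 2571.5 UMIs. Matrix-like cells, far deeper, had 0 of 549 (up to 0.546%), 0 of 649 (up to 0.462%) and 0 of 829 (up to 0.362%). Thinned to 1000 UMIs, the neutrophil-like shares were 51.9%, 42.9% and 58.9%. Keratinocyte-like cells held only 8, 6 and 5 *Nlrp3* UMIs in all, or 0.0763, 0.0483 and 0.0397 CPM. The sensor was thus close to undetected in keratinocyte-like cells, where *Pycard* and the caspases were plentiful.

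*Pycard* (ENSMUSG00000030793, chr7:127989708-127993867, minus strand) encodes ASC, the adaptor between sensor and caspase. It had 8362, 7225 and 8821 UMIs, or 70.2 (68.7 to 71.7), 53.3 (52.1 to 54.5) and 63.2 (61.9 to 64.5) CPM. The AA over Neg ratio was 0.759 (0.736 to 0.784), a fall within the limit of 1.5-fold. *Pycard* was thus lower in AA, opposite to both caspases, and rose in AA+Ab without reaching the Neg level.

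Keratinocyte-like cells gave 90.5%, 93.4% and 92.7% of the *Pycard* UMIs, at 72.2 (70.6 to 73.9), 54.4 (53.1 to 55.7) and 65.0 (63.6 to 66.4) CPM. Among them suprabasal-like cells had 144, 111 and 143 CPM and upper hair follicle-like cells 132, 118 and 126. Suprabasal cluster 5 held 170, 157 and 176 CPM, and cluster 6 held 95.6, 82.3 and 85.2. *Pycard* was therefore lower in AA within each suprabasal cluster, by less than over the class, whose AA cells came mostly from cluster 6.

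Inner root sheath-like cells had 99.99, 72.1 and 60.1 CPM of *Pycard*, falling in each step. Basal-like cells had 49.6, 40.3 and 47.3 CPM, cortex-like cells 35.9, 27.5 and 23.3, and matrix-like cells 31.0, 24.9 and 23.4. Among these keratinocyte-like classes the adaptor was thus highest in suprabasal-like and upper follicle-like cells and low in cortex-like and matrix-like cells. T cell-like cells had 68.1, 43.4 and 60.9 CPM and DC/Mac-like cells 61.8, 67.1 and 59.0. Neutrophil-like cells held 4, 0 and 17 *Pycard* UMIs, or 28.8, 0 (up to 37.7) and 41.4 CPM. With called doublets removed, their AA+Ab level of *Pycard* was 4.53 CPM.

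A *Pycard* UMI was found in 53.2%, 40.0% and 44.0% of keratinocyte-like cells, and in 6.63%, 5.01% and 5.58% when thinned to 1000 UMIs. Skeletal muscle-like cells, taken as a class with little of the gene, had 16.3%, 8.62% and 4.88%, at median depths of 4035, 2483.5 and 1958 UMIs. The *Pycard* share was lower in AA than in Neg at equal depth too.

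*Casp1* (ENSMUSG00000025888, chr9:5298517-5307265, plus strand) encodes the caspase that matures both cytokines. It had 908, 1664 and 1177 UMIs, or 7.62 (7.13 to 8.13), 12.3 (11.7 to 12.9) and 8.43 (7.95 to 8.92) CPM. The ratios were 1.61 (1.49 to 1.75) and 0.687 (0.637 to 0.741). *Casp1* was thus higher in AA and stood near the Neg level in AA+Ab. With classes weighted as in Neg the AA level was 11.1 CPM and the log2 ratio 0.54, below the limit of 1.5-fold.

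Keratinocyte-like cells gave 83.0%, 89.1% and 89.6% of the *Casp1* UMIs, at 7.195, 11.9 and 8.38 CPM, with ratios of 1.66 (1.52 to 1.81) and 0.702 (0.648 to 0.760). Upper hair follicle-like cells had 7.85, 15.7 and 9.20 CPM, basal-like cells 9.42, 14.2 and 10.4, and suprabasal-like cells 10.3, 15.7 and 11.7. Matrix-like cells had 2.94, 6.63 and 2.87 CPM, with ratios of 2.26 (1.56 to 3.30) and 0.433 (0.307 to 0.605). The rise of *Casp1* in AA thus also reached the matrix, where that of *Zbp1* was not detectable. Inner root sheath-like cells stayed level at 2.53, 2.38 and 2.46 CPM.

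The later fall of *Casp1* was not seen within every cluster. Suprabasal cluster 5 had 10.2, 13.2 and 13.6 CPM of *Casp1*, and cluster 6 had 10.5, 17.3 and 8.28. Cluster 13 stood highest, at 35.1, 37.2 and 49.6 CPM, and cluster 3 had 10.6, 12.2 and 13.8. In clusters 3, 5 and 13, then, *Casp1* did not fall from AA to AA+Ab.

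T cell-like cells had 33.0, 33.0 and 18.4 CPM of *Casp1*, with ratios of 1.00 (0.647 to 1.58) and 0.556 (0.337 to 0.889). DC/Mac-like cells had 26.9, 30.1 and 16.4 CPM and dermal fibroblast-like cells 17.9, 30.6 and 11.7, and in AA the intervals of all 3 classes overlapped. Neutrophil-like cells held 1, 2 and 8 *Casp1* UMIs, or 7.19 (0.182 to 40.1), 25.2 (3.05 to 90.9) and 19.5 (8.40 to 38.3) CPM. In T cell-like cells, as with *Zbp1*, the *Casp1* level per UMI did not differ detectably between Neg and AA while keratinocyte-like *Casp1* was higher.

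A *Casp1* UMI was found in 11.1%, 12.7% and 9.67% of keratinocyte-like cells and in 0.492%, 1.39% and 0.928% after thinning. Gamma-delta T cell-like cells, taken as a class with little of the gene, had 2.42%, 0.877% and 0.922%, at median depths of 5320, 4071.5 and 4506 UMIs. Thinning left the AA share of *Casp1* highest and widened its distance from Neg.

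*Casp4* (ENSMUSG00000033538, chr9:5308828-5336783, plus strand) encodes the caspase that binds bacterial lipopolysaccharide in the cytosol, and it lies 1562 bases from *Casp1*. It had 3100, 5870 and 4321 UMIs, or 26.0 (25.1 to 26.9), 43.3 (42.2 to 44.4) and 30.9 (30.0 to 31.9) CPM. The ratios were 1.66 (1.59 to 1.74) and 0.715 (0.687 to 0.744). *Casp4* thus followed the same course as its neighbour *Casp1* in the libraries. With classes weighted as in Neg the AA level was 36.7 CPM and with clusters weighted 33.7, both less than 1.5-fold over Neg.

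Keratinocyte-like cells gave 84.9%, 87.8% and 87.5% of the *Casp4* UMIs, at 25.1, 41.5 and 30.0 CPM, with ratios of 1.65 (1.58 to 1.73) and 0.723 (0.693 to 0.754). Cluster 2 had 67.6, 82.9 and 90.8 CPM, and its share of the cells was largest in AA. Basal cluster 0 had 47.4, 59.1 and 67.5 CPM, and cluster 3 had 39.6, 39.8 and 50.5. In these clusters *Casp4* did not fall from AA to AA+Ab, while in cluster 1 it did, at 44.6, 63.7 and 39.8 CPM. The lower class value in AA+Ab therefore held in some clusters only, and the cell mix differed at the same time.

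By class, basal-like cells had 44.7, 56.6 and 56.8 CPM of *Casp4*, and upper hair follicle-like cells 24.9, 48.5 and 37.6. Cycling cluster 8 had 41.7, 58.7 and 44.5 CPM against 0.860, 1.76 and 0.674 in cluster 11. Matrix-like cells had only 1.27, 1.31 and 1.04 CPM and inner root sheath-like cells 0.880, 1.40 and 1.17. *Casp4* was thus nearly confined, within the epithelium, to clusters outside the lower follicle, where *Aim2* stood highest.

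Outside the epithelium, neutrophil-like cells had the most *Casp4*, at 230 (157 to 325), 252 (154 to 389) and 297 (246 to 354) CPM, with overlapping intervals. With called doublets removed the neutrophil-like level of *Casp4* was 319, 663 and 425 CPM. Melanocyte-like cells had 41.5, 104 and 12.4 CPM, with ratios of 2.52 (1.77 to 3.60) and 0.119 (0.0684 to 0.197), at median depths of 33605, 7425 and 20100.5 UMIs whose part was not tested. T cell-like cells had 117, 98.5 and 76.3 CPM and DC/Mac-like cells 45.7, 95.9 and 55.7. The DC/Mac ratios were 2.10 (1.22 to 3.81) and 0.581 (0.374 to 0.887), so *Casp4* was higher in AA there but not in T cell-like cells. In the DC/Mac-like class the 11 DC/Mac markers (17370, 26330 and 13990 CPM, led by *Cd74*) and the 8 monocyte markers (3551, 6935 and 3455 CPM, led by *Lyz2*) were also highest in AA, and their part was not tested.

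A *Casp4* UMI was found in 23.2%, 26.8% and 22.5% of keratinocyte-like cells, and in 3.08%, 4.198% and 3.74% after thinning. Inner root sheath-like cells had 0.850%, 1.71% and 2.07%, at median depths of 23217, 19194 and 20041.5 UMIs. The *Casp4* share was thus far above that of this deeper class in every library.

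*Gsdmd* (ENSMUSG00000022575, chr15:75862327-75867408, plus strand) encodes gasdermin D, the pore former. It had 108, 200 and 125 UMIs, or 0.906 (0.743 to 1.09), 1.48 (1.28 to 1.69) and 0.895 (0.745 to 1.07) CPM. The ratios were 1.63 (1.28 to 2.08) and 0.607 (0.481 to 0.763). *Gsdmd* was thus scarce throughout and higher in AA. With classes weighted as in Neg it had 1.26 CPM in AA, less than 1.5-fold over Neg, and thinning to 1000 UMIs turned the log2 ratio to -0.41. That thinned value rests on 17 of 6292, 21 of 10347 and 13 of 9674 cells, with shares of 0.270% (0.158% to 0.432%), 0.203% (0.126% to 0.310%) and 0.134% (0.0716% to 0.230%), so Neg and AA overlapped.

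Keratinocyte-like cells held 54 of the 108, 121 of the 200 and 67 of the 125 *Gsdmd* UMIs, or 0.515, 0.975 and 0.532 CPM. The ratios were 1.89 (1.36 to 2.66) and 0.546 (0.399 to 0.742). Cells not named further held 22, 82 and 16 of these UMIs, or 0.838, 1.76 and 0.473 CPM, with ratios of 2.10 (1.30 to 3.54) and 0.268 (0.146 to 0.462). Matrix-like cells had 0.534, 0.621 and 1.14 CPM and basal-like cells 0.395, 0.708 and 0.675, so the later fall of *Gsdmd* was not seen there. DC/Mac-like cells had 29.6 (14.8 to 52.9), 39.7 (26.6 to 57.1) and 19.7 (10.2 to 34.4) CPM, and T cell-like cells 16.0, 10.4 and 14.7. The DC/Mac-like and T cell-like intervals for *Gsdmd* overlapped in Neg and AA+Ab but not in AA. Neutrophil-like cells had 2, 0 and 6 *Gsdmd* UMIs, or 14.4, 0 (up to 37.7) and 14.6 CPM. Dermal fibroblast-like cells had 9.39 (4.69 to 16.8), 13.7 (7.30 to 23.4) and 21.5 (10.7 to 38.4) CPM. The executioner was thus held at a lower level per UMI by keratinocyte-like cells, where *Pycard* and *Casp4* were abundant. DC/Mac-like, T cell-like and dermal fibroblast-like cells all stood above them, so a higher level was not particular to the immune classes.

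A *Gsdmd* UMI was found in 0.964%, 1.24% and 0.759% of keratinocyte-like cells, against 0.283%, 0.286% and 0 of 386 (up to 0.777%) of inner root sheath-like cells at the greater depths given for that class. After thinning the keratinocyte-like shares were 0.164%, 0.122% and 0.0595%, from 9, 11 and 5 cells, too few to tell the libraries apart in *Gsdmd*.

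*Il1b* (ENSMUSG00000027398, chr2:129364570-129371139, minus strand) encodes a cytokine made as a precursor and cleaved by caspase-1. It had 1353, 1215 and 3844 UMIs, or 11.4 (10.8 to 11.97), 8.96 (8.46 to 9.48) and 27.5 (26.7 to 28.4) CPM. The ratios were 0.789 (0.730 to 0.854) and 3.07 (2.88 to 3.28). *Il1b* thus shared with *Nlrp3* the lowest level in AA and the highest in AA+Ab.

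Neutrophil-like cells gave 83.0%, 47.4% and 84.5% of the *Il1b* UMIs. Their level was 8076 (7610 to 8562), 7244 (6664 to 7860) and 7903 (7634 to 8180) CPM, with ratios of 0.897 (0.810 to 0.993) and 1.09 (0.998 to 1.19). All 28, 15 and 96 of them had an *Il1b* UMI, with a median of 34, 32 and 29 per cell. With called doublets kept, the *Il1b* level per neutrophil-like UMI was thus nearly the same in the 3 libraries, while the number of these cells was not. With called doublets removed the level was 10200, 16080 and 13080 CPM, which turned the direction of both ratios. T cell-like cells, taken as a class with little of the gene, had an *Il1b* UMI in 0.847%, 0.756% and 0.412% of cells at median depths of 5526.5, 3929 and 4131 UMIs, and the thinned neutrophil-like shares were 96.3%, 92.9% and 95.8%.

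DC/Mac-like cells had 70, 449 and 421 *Il1b* UMIs, or 188 (147 to 238), 615 (560 to 675) and 690.1 (626 to 759) CPM. The ratios were 3.27 (2.54 to 4.27) and 1.12 (0.980 to 1.28). These UMIs came from 11 of 52, 28 of 117 and 30 of 105 cells. At resolution 2 the DC/Mac-like levels were 221, 679 and 1149 CPM. The 8 monocyte markers, all with UMIs and led by *Lyz2*, summed to 3551, 6935 and 3455 CPM in the same class, and their part was not tested. The share of these cells with an *Il1b* UMI was 21.2%, 23.9% and 28.6%. *Il1b* UMIs per class UMI thus rose in DC/Mac-like cells of AA and did not fall there in AA+Ab, unlike *Zbp1*, *Casp4* and *Il18*, which did. Without neutrophil-like cells the library log2 ratio of *Il1b* was 1.29 for AA over Neg and -0.14 for AA+Ab over AA, the opposite direction in both. With classes weighted as in Neg the first was 0.04.

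Keratinocyte-like cells had little *Il1b*, at 1.37, 1.28 and 1.22 CPM, with ratios of 0.932 (0.739 to 1.18) and 0.949 (0.755 to 1.19). No difference was detectable there at this depth. Basal-like cells stood at 3.03, 1.85 and 2.34 CPM. In dermal fibroblast-like cells *Il1b* had 1, 10 and 1 UMIs, and the 10 in AA came from 1 cell that the finer resolution placed with endothelial-like cells.

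*Il18* (ENSMUSG00000039217, chr9:50554827-50581840, plus strand) encodes a second cytokine matured by caspase-1. It had 292, 350 and 362 UMIs, or 2.45 (2.18 to 2.75), 2.58 (2.32 to 2.87) and 2.59 (2.33 to 2.87) CPM. The ratios were 1.05 (0.899 to 1.24) and 1.00 (0.865 to 1.17). *Il18* was the only member with no detectable difference between libraries in either comparison.

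Keratinocyte-like cells gave 78.1%, 78.6% and 78.5% of the *Il18* UMIs, at 2.18, 2.22 and 2.26 CPM, again with no detectable difference. Suprabasal-like cells had 2.97, 3.26 and 4.71 CPM and basal-like cells 3.69, 3.05 and 3.53. Matrix-like cells held only 1, 4 and 1 *Il18* UMIs. All keratinocyte-like cells together held 87.9%, 91.5% and 90.1% of all UMIs, more than their share of *Il18* UMIs. Neutrophil-like cells had 86.3, 25.2 and 43.8 CPM from 12, 2 and 18 UMIs, and dermal fibroblast-like cells 16.2, 23.2 and 5.86 CPM.

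DC/Mac-like cells held 7, 33 and 9 *Il18* UMIs, or 18.8, 45.2 and 14.8 CPM, with ratios of 2.40 (1.05 to 6.44) and 0.326 (0.137 to 0.697). Langerhans-like cells, of which there were only 13, 14 and 26, had 49.6, 9.13 and 37.4 CPM from 13, 3 and 30 UMIs. Called doublets were 15.4%, 28.6% and 46.2% of the Langerhans-like cells. Their 12 keratinocyte markers, all with UMIs, summed to 15780, 24430 and 22260 CPM, led by *Krt14* in Neg and *Krt10* in the others. Their DC/Mac list summed to 20740, 9824 and 9331 CPM (10, 8 and 10 of 11 with a UMI, led by *Cd74*, *C1qb* at 0 in all and *Lyz2* and *Cd209a* at 0 in AA). The part of these in the Langerhans-like *Il18* values was not tested, nor was that of the DC/Mac, monocyte and B cell lists of the DC/Mac-like class in its *Il18* values. An *Il18* UMI was found in 3.53%, 2.65% and 2.95% of keratinocyte-like cells, in 0.364%, 0.266% and 0.274% after thinning, and in 0.182%, 0.462% and 0.121% of the deeper matrix-like cells.

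**Figure D3:**
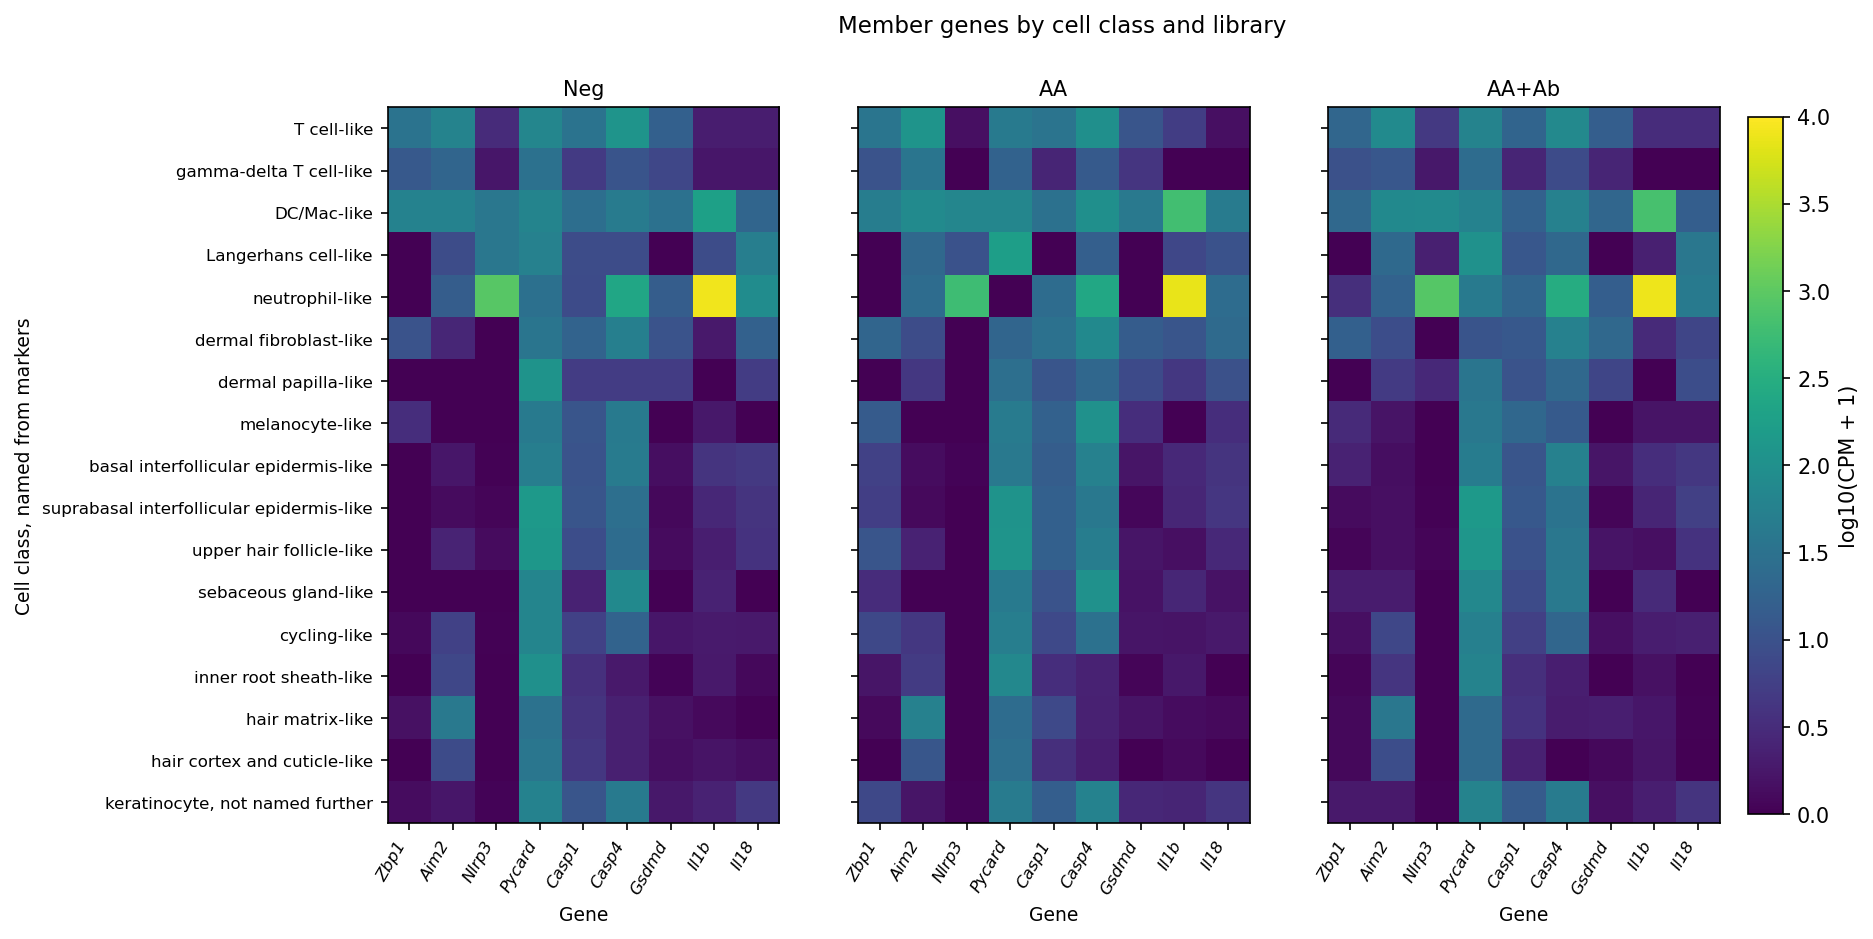
Levels of the 9 members in 17 classes and 3 libraries, as log10 of CPM plus 1.

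Joint detection of members was counted cell by cell. *Il1b* and *Nlrp3* were both found in 25 of 28, 12 of 15 and 85 of 96 neutrophil-like cells (89.3%, 80.0% and 88.5%). Every neutrophil-like cell had an *Il1b* UMI, so these joint counts repeat those of *Nlrp3* and say nothing on pairing. In DC/Mac-like cells *Il1b* and *Nlrp3* were found together in 3, 11 and 13 cells. *Il1b* was found there in 11, 28 and 30 cells and *Nlrp3* in 7, 24 and 21. Neutrophil-like cells thus held *Nlrp3* and *Il1b* together in most cells of each library, and DC/Mac-like cells in few.

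Genes with a pattern like that of each member were sought over 45 sums of a class in a library, from 18 classes. The points share libraries and depth, so these correlations of log CPM are descriptions. *Zbp1* was most like *Ifi47* (r = 0.928) and *Gbp9* (0.902), and *Casp4* was most like *H2-D1* (0.943) and *B2m* (0.940). *Casp1* was most like *Irf9* (0.844), with *Casp4* also at 0.824. *Aim2* was most like *Tnf* (0.912), *Nlrp3* like *Clec4e* (0.978), *Il1b* like *Mcemp1* (0.968), *Gsdmd* like *Lsp1* (0.907), *Il18* like *Gda* (0.917) and *Pycard* like *Gltp* (0.828). With classes of at least 20 cells, the most similar gene changed for *Casp1* (to *Tnip2*), *Gsdmd* (to *Gbp5*) and *Il18* (to *Hacd4*). Between members the highest value was that of *Il1b* and *Nlrp3* (0.933). Of the neutrophil-like sums only that of AA+Ab (96 cells) was large enough to enter. It had 883 CPM of *Nlrp3* and 7903 CPM of *Il1b*, and its part in the values of these genes was not tested.

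Lists of genes around the pathway are given as a description, and they were chosen with earlier results of these data known. Over all genes that passed the filter, 6.95% were higher and 8.3% lower in AA than in Neg. From AA to AA+Ab 5.85% were higher and 9.6% lower. Nothing is read from the list counts here and in the paragraphs that follow. All 15 interferon-responsive genes passed the filter, and 15 were at least 1.5-fold higher in AA than in Neg, while 13 were lower in AA+Ab than in AA, with median log2 ratios of 2.002 and -1.58. *Iigp1* had 0.822, 52.5 and 5.19 CPM, *Cxcl9* 0.965, 18.5 and 1.96, and *Ifi47* 0.495, 6.57 and 1.09. *Zbp1* had log2 ratios of 2.66 and -2.37, and since it was selected on its AA level, nothing is read from its place beside that list. *Casp1* and *Casp4* moved less than that median.

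The interferon list summed to 131, 214 and 111 CPM in matrix-like cells and to 766, 1390.0 and 588 CPM in T cell-like cells, classes whose *Zbp1* was not detectably higher in AA. In DC/Mac-like cells it summed to 524, 1577 and 907 CPM, beside 59.1, 48.0 and 21.3 CPM of *Zbp1*. In basal-like cells it summed to 298, 613 and 415 CPM and in upper hair follicle-like cells to 254, 632 and 311. The list was higher in AA than in Neg in every class, and *Zbp1* was selected on its AA level, so nothing is read from where both were higher.

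Of 10 listed inducers that passed, 5 were higher in AA and 5 were lower in AA+Ab, with median log2 ratios of 0.74 and -0.62. *Irf1* had 39.7, 78.7 and 66.1 CPM and *Nfkb1* 217, 271 and 163. Both were highest in AA, as were *Zbp1*, *Casp1* and *Casp4*.

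Of 14 other sensors and adaptors that passed, 5 were higher and 1 lower in AA, and 2 were higher and 4 lower in AA+Ab. *Txnip*, a partner of NLRP3, had 553, 187.0 and 584 CPM, ratios of 0.338 (0.333 to 0.343) and 3.12 (3.08 to 3.17). It had 571.5, 181 and 599 CPM in keratinocyte-like cells, so its fall was found there too, and other classes were not compared. *Nek7*, another partner of NLRP3, was nearly level at 122, 130 and 108 CPM. *Mefv* had 0.159, 0.184 and 0.380 CPM from 19, 25 and 53 UMIs, of which neutrophil-like cells held 9, 3 and 28 and DC/Mac-like cells 6, 20 and 23. *Nlrp1a* had 12.3, 15.8 and 10.7 CPM, above *Nlrp3* in every library.

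Of 7 nucleic acid sensing genes that passed, 0 were past the limit in AA and 1 was lower in AA+Ab. *Ifih1* had 12.2, 18.1 and 10.3 CPM, just short of the limit in AA. Of 8 partners of ZBP1 in cell death, 2 were higher in AA and 1 was lower in AA+Ab, with median log2 ratios of 0.18 and -0.14. The 2 higher ones were *Ripk1* (24.3, 39.9 and 38.5 CPM) and *Mlkl* (0.956, 1.61 and 0.902 CPM, named after its values were seen). *Cyld* had 43.1, 48.2 and 39.6 CPM and *Cflar* 23.1, 26.5 and 22.2.

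Of 11 other caspases and gasdermins that passed, 4 were higher and 1 lower in AA, and 3 were lower in AA+Ab, with median log2 ratios of -0.03 and -0.05. *Gsdme* had 16.5, 13.1 and 17.5 CPM and *Gsdma* 4.64, 2.87 and 3.87, both above *Gsdmd* in every library and both lowest in AA. *Gsdmc* (0.168, 0.553 and 0.251 CPM), *Gsdmc2* (0.260, 0.413 and 0.179) and *Gsdma3* (0.864, 1.34 and 1.29), named after their values were seen, were higher in AA than in Neg. The remaining higher gene was the caspase gene *Casp12* (1.854, 2.898 and 1.675 CPM), also named after its values were seen. *Ninj1* had 26.1, 20.8 and 27.1 CPM.

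Of 6 other IL-1 family cytokines found under their listed symbols, 1 was lower in AA and 1 was higher and 1 lower in AA+Ab. *Il33* had 65.3, 92.2 and 73.2 CPM, more than *Il1b* or *Il18* in every library. *Il1rn*, which encodes an antagonist of the IL-1 receptor, had 24.3, 33.4 and 23.6 CPM, also above *Il18* throughout. Of 10 genes listed as IL-1 and IL-18 receptors with the signalling genes *Myd88* and *Irak4*, 2 were higher in AA (*Il18rap* and *Myd88*) and 3 lower in AA+Ab, and *Il1r1* had 29.1, 37.9 and 27.2 CPM.

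Promoter sequences from RefSeq (GRCm38.p6) covered 7 of the 9 members in 9 entries, with none for *Zbp1* and *Gsdmd*, and 300 bases around each start were searched on both strands. The core of the interferon-stimulated response element, a pair of GAAA blocks spaced by any 2 bases, matched 0 of the 7 members and 3.44% of all 32851 promoters. The gamma-activated site TTCNNNGAA matched 0 of the 7 and 8.30% of promoters. A wide NF-kB pattern, GGG and CC separated by any 5 bases, matched *Nlrp3*, *Casp1* and *Casp4*, and 50.8% of promoters. A match is a description, and no match says only that these letters are not in this window. The windows before the start of these 3 members are shown because they are the members whose promoters held a match, in capitals, and are written on the plus strand, GRCm38.p6.
Nlrp3, chr11:59541319-59541567: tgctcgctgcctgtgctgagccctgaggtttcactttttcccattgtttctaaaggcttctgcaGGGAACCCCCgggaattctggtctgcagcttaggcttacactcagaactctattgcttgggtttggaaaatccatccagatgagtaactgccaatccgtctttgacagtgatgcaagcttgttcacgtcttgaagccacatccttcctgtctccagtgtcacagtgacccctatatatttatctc
Casp1, chr9:5298267-5298516: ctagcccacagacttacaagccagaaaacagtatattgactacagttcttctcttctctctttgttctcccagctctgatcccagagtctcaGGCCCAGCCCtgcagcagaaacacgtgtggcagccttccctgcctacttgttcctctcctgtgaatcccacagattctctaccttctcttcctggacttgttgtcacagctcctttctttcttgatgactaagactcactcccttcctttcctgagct
Casp4, chr9:5308599-5308827: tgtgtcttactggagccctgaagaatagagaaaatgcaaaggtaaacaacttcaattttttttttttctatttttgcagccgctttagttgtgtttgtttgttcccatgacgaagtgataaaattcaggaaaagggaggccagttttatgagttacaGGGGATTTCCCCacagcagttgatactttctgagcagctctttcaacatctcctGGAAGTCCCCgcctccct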

How the data were processed

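The deposited values were UMI counts per gene and barcode, which the authors made from 10x 3′ reads with Cell Ranger 7.2.0 on mm10 after FastQC 0.11.7; the annotation release is not given in the sources used here. Gene coordinates were taken from GENCODE vM21 and promoters from RefSeq. The members and lists were chosen with earlier results of these data known. Barcodes with at most 10% mitochondrial UMIs and at least 200 genes were kept, 6582, 10433 and 9832 in Neg, AA and AA+Ab, or 94.5%, 95.9% and 93.6% of those deposited. UMIs were summed per library, class or cluster and given as CPM with exact Poisson intervals, shares with Clopper-Pearson intervals and ratios with exact conditional intervals, all at 95%. The floor for a count of 0 was 3 UMIs or cells. Each group was 1 library, so no test was made; the comparisons were AA over Neg and AA+Ab over AA, with a fold of 1.5 among genes with at least 50 UMIs.

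Cells of the 3 libraries were clustered together without integration from 2000 variable genes, 30 principal components, 20 neighbours and Leiden resolution 1, leaving out 95 member and list genes. A cluster was named where at least 3 markers and 50% of a list (or 2 of its 10 leading genes) were found in at least 25% of its cells and at least 2-fold over other cells with 5 CPM added, and was called keratinocyte where at least 6 keratinocyte markers were in 50% of its cells. These naming thresholds were set after the clusters were seen, and the rule for naming keratinocyte subclasses was tightened after member levels by cluster had been seen. Clusters of few UMIs (under 0.1 of the library median, or under 0.333 with no leading marker) and those with over 50% called doublets stayed unnamed. Doublets were called from 2 simulated doublets per cell and 50 neighbours at 0.8% per 1000 barcodes, 367, 908 and 826 cells, and were kept in the main values. Thinning drew 1000 UMIs per cell. The classes used as having little of a gene were chosen after their values were seen.

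Likeness was the correlation of log CPM, with 1 CPM added, over classes with at least 50 cells in a library, among genes with at least 200 UMIs. The genes named were the members, those most like each member, markers, and the 3 highest of each of 8 pathway lists in AA. Those with the 3 highest and 3 lowest ratios in each comparison were also named. *Mlkl*, *Gsdmc*, *Gsdmc2*, *Gsdma3*, *Casp12*, *Il18rap*, *Myd88* and *Irak4* fall outside this rule and were chosen after their values were seen. So were the genes most like a member with smaller classes. The 4 listed genes *Il36a*, *Il36b*, *Il36g* and *Gm12250* had no entry under these symbols in the matrices. Other IL-1 family members stand there under symbols such as *Il1f5* and *Il1f10*, so entries of the missing genes under other symbols are not covered. Other limits on cells, genes, doublets, denominator, depth, fold, resolution and class mix were tried as alternatives. Only the fold calls and ratio intervals were tested on simulated data, with Poisson counts of library totals that hold no variation between cells. Clustering, naming, doublet calling, thinning, weighting and likeness were not simulated. The tools were Python 3.11.15, numpy 2.4.6, scipy 1.17.1, pandas 2.3.3, scikit-learn 1.9.0, igraph 0.11.9, leidenalg 0.10.2 and matplotlib 3.10.9.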

Additional observations from a re-analysis of the deposited data

Results flagged for a closer look

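Member ratios were singled out where the counting intervals of a gene lay on opposite sides of no change in different classes of the same comparison; the values below are log2 ratios, and the difference between classes was not tested. For AA over Neg, *Pycard* was 1.60 in Langerhans-like cells, against -0.65 in T cell-like, -0.88 in dermal fibroblast-like, -2.0 in dermal papilla-like and -0.41 in keratinocyte-like cells. *Il1b* was 1.71 in DC/Mac-like and 3.63 in dermal fibroblast-like cells, against -0.16 in neutrophil-like cells. *Il18* was 1.27 in DC/Mac-like cells and -2.44 in Langerhans-like cells. For AA+Ab over AA, *Pycard* was 0.49 in T cell-like and 0.26 in keratinocyte-like cells, against -0.71 in Langerhans-like cells. *Il18* was 2.03 in Langerhans-like cells, against -1.62 in DC/Mac-like and -1.99 in dermal fibroblast-like cells. Both cytokine values in dermal fibroblast-like cells rest on few UMIs, and the 10 *Il1b* UMIs of AA came from 1 cell that a finer resolution placed with endothelial-like cells. The Langerhans-like class had 13, 14 and 26 cells, of which 15.4%, 28.6% and 46.2% were called doublets; its 12 keratinocyte markers summed to 15780, 24430 and 22260 CPM and its 11 DC/Mac markers to 20740, 9824 and 9331 CPM, and their part in the *Pycard* and *Il18* values was not tested. With called doublets removed, the neutrophil-like level of *Il1b* was 10200 CPM in Neg and 16080 CPM in AA, so its direction there turned.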

How the results depend on the processing

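The main counts were 4 members higher and 1 lower in AA over Neg, and 2 higher and 2 lower in AA+Ab over AA. With classes weighted as in Neg they were 1, 0, 0 and 1, and the log2 ratio of *Il1b* for AA over Neg turned to 0.035. With clusters weighted as in Neg they were 1, 0, 0 and 1, and that ratio turned to 0.03. A fold of 2 gave 1, 0, 2 and 1. Thinning to 1000 UMIs per cell gave 2 higher and 2 lower in AA over Neg and turned *Gsdmd* to -0.41. Without neutrophil-like cells 0 were lower in AA over Neg and 0 higher in AA+Ab over AA, *Nlrp3* turned to 0.55, and *Il1b* turned to 1.29 and -0.14. The cause of these turns was not tested. The share of all genes past the limit is not given under any of the other settings, so nothing is read from these counts about the members. All 4 counts stayed the same with a mitochondrial limit of 5% or 20%, at least 500 genes, at least 200 UMIs, called doublets removed, a denominator without mitochondrial, ribosomal and hemoglobin genes, and without the low-UMI and doublet clusters. Of the member ratios over all settings 137 kept their value, 37 moved and 6 turned; of the class levels under other resolutions or without doublets 373 kept and 32 moved. With classes of at least 20 cells, 3 of the 9 members (*Nlrp3*, *Pycard* and *Casp4*) kept 4 of their 5 most similar genes and 6 kept 2 or 3. Leaving out neutrophil-like cells or the unnamed clusters and weighting by clusters were chosen after seeing the data. No paired analysis was possible because each group was 1 pooled library.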
